A study of Mus musculus with 36 samples.

Results

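The interferon-stimulated genes described here were 37 listed mouse genes, and their chromatin was followed with ATAC-seq, which cuts accessible DNA with the Tn5 transposase and counts the cuts in peaks. A consensus peak was assigned to a gene when its midpoint lay nearest to a protein-coding transcription start site (TSS) of that gene, which gave 147 of 71509 peaks: 36 promoter peaks, with the midpoint within 1 kb of a TSS, and 111 distal peaks. The nearest TSS gives a peak its name and does not show that the peak acts on that gene. The study asked how the heterochromatin proteins HP1a and HP1g shape the response of CD4 T cells to regulatory T cells (Treg), with 36 libraries in 12 groups of 3. Accessibility does not measure either protein, so the loss of HP1a and HP1g was not checked here. In the HP1a series, the KO groups carried a germline deletion of Hp1a made with CMV-cre, so that every cell of the donor mouse lacked it, and the WT groups came from their littermates. The mutant lines were kept on a mixed genetic background, only part of which is C57BL/6. In the HP1g series, the KO groups were Hp1g flox/flox with the Cd4-cre transgene, which acts in T lineage cells, and the HP1g WT groups carried the flox/flox alleles without cre. Naive cells were splenic CD4 T cells taken directly from these mice. The Tconv groups were naive cells of each genotype that had been given to lethally irradiated hosts, either C57BL/6 J or CD45.1+ B6, together with C57BL/6 J and B6D2F1 bone marrow and were sorted again weeks later as donor-specific TCR Vβ6+ cells from the spleen. Groups named Tconv with Treg differed only by the co-injection of ex vivo expanded WT Treg. All transferred cells had therefore also met irradiation-induced lymphopenia, and the responder gate took a single TCR Vβ family.

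The HP1g libraries held 19.4 to 90.3 M (mega) reads in peaks, and the HP1a libraries that the study kept held 1.49 to 96.8 M. The study left out 3 HP1a libraries of Tconv with Treg (WT replicate 3, KO replicates 2 and 3). These held 3.20 to 7.12 M reads, with 44.6% to 46.8% of reads in promoter peaks against 50.3% to 56.6% in the 33 others, so that HP1a KO Tconv with Treg rested on 1 library and HP1a WT Tconv with Treg on 2. The peaks of the interferon-stimulated genes took 0.210% to 0.252% of the reads of every library. Of 7 CD4 T cell marker genes all had peaks, and their peaks took 0.124% to 0.236% of reads. Their share was 0.192% to 0.236% in HP1g KO libraries against 0.141% to 0.175% in HP1g WT libraries, and the part of this in the HP1g results was not tested. The defining markers Ms4a1 (B cells), Lyz2 and Csf1r (myeloid cells), Siglech (plasmacytoid dendritic cells), Ncr1 (NK cells) and Klf1 (erythroid cells) had no peak. The 7 peaks of the CD8 T cell markers Cd8a and Cd8b1 took 0.00368% to 0.00442% of reads in naive libraries and 0.000395% to 0.00292% in transferred cells. The 25 peaks of Tcf4, on the plasmacytoid dendritic list, took 0.0249% to 0.0299% in naive libraries and 0.00668% to 0.0230% in transferred cells. The part of these differences in the results between naive and transferred cells was not tested. In bulk libraries, fewer cells with an open site and less opening per cell cannot be told apart.

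Type I interferons bind a receptor that activates the kinases JAK1 and TYK2, and the signal ends in a complex with STAT2 and IRF9 that binds the interferon-stimulated response element (ISRE) near the genes it induces, while IFN-γ acts mainly through another element, GAS. The induced genes encode antiviral effectors, the sensors of viral nucleic acid, the transcription factors of the pathway itself and its brakes, and in T cells they form a program that can be switched on by type I interferon as well as by IFN-γ.

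Of the 37 genes, 35 had at least 1 peak and 32 a promoter peak. Ifit3 and Mx2 had none. Irf1 had 18 distal peaks and no promoter peak because its start sites lie inside a wide peak whose midpoint is 1.86 kb away, Ifit1 had 1 distal peak while its start site lies in a peak nearest to Ifit1bl2, and Oasl1 had 2 distal peaks with no peak over its start. The core of the ISRE was searched as GAAANNGAAA on both strands, with overlapping matches allowed, in the 300 bases from 250 before to 50 after the canonical TSS (GRCm39). It stood in 19 of 37 genes (51.4%) against 3.84% of 21751 protein-coding genes. GAS, searched as TTCNNNGAA, stood in 8 of 37 (21.6%) against 8.81%. The stretches below show how differently the element is arranged in promoters of these genes, with all ISRE cores in capitals (TTTCNNTTTC where the core is on the other strand), each read 5′ to 3′ on the strand of its gene. They are Isg15 at chr4:156285307-156285378 (minus strand), Usp18 at chr6:121222757-121222840 (plus), Rsad2 at chr12:26506537-26506596 (minus), Zbp1 at chr2:173060727-173060840 (minus), Cxcl10 at chr5:92496927-92496986 (minus), Oas2 at chr5:120887955-120888014 (minus) and, for comparison, Ifit1 at chr19:34618160-34618238 (plus).
Isg15: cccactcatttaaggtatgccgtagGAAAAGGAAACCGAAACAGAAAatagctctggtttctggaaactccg
Usp18: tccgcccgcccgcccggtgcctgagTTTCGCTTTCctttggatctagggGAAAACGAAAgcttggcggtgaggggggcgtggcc
Rsad2: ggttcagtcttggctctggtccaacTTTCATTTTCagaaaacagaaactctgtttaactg
Zbp1: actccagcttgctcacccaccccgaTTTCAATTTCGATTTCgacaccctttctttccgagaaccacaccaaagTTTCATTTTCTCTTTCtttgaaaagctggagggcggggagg
Cxcl10: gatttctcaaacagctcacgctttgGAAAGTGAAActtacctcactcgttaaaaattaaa
Oas2: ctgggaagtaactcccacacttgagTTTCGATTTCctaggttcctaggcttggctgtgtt
Ifit1: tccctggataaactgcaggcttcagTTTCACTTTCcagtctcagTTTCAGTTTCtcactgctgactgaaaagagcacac
Isg15 holds 3 cores that run into each other in 1 run that ends at position -29 from the TSS. Usp18 and Ifit1 hold 2 cores with a gap between them, Zbp1 holds 2 overlapping pairs, and Rsad2, Cxcl10 and Oas2 hold 1 core each. A match is a description of letters and not of binding. At the peaks themselves, the central 300 bases held the core in 27.8% of the 36 promoter peaks and 15.3% of the 111 distal peaks, against 2.72% of 13071 promoter peaks and 6.07% of 58438 distal peaks in the whole table.

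The leading promoters of these genes lay between percentiles 10.9 (Oas2) and 72.3 (Parp9) of all promoter peaks. Per kilobase of peak, the mean level over the groups of the 32 leading promoter peaks (the strongest of each gene) ran from 2.00 (Oas2) to 4.60 (Parp9) on the log2 CPM scale (counts scaled to library depth), with a median of 4.09, and the median gene stood at percentile 52.3 of all promoter peaks, although the strongest peak of each gene is set here against every promoter peak. Oas2, which makes the 2-5A messenger that activates RNase L, and Mx1, a dynamin-like GTPase that blocks incoming viruses, were the least open. Parp9, Irf7 and Stat2 were at the upper end. Isg15, the ubiquitin-like modifier, serves as an example. Its promoter peak was at 3.48, 3.72 and 3.83 log2 CPM in the 3 HP1a WT naive libraries and at 4.10, 3.86 and 3.44 in the HP1a WT Tconv libraries. In the HP1g WT series it was at 3.61, 3.64 and 3.68 in naive cells and at 3.85, 3.78 and 3.99 in Tconv. The groups overlapped in the first series and not in the second, and the fitted differences of 0.31 and 0.29 stayed under the fold threshold.

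**Figure D1:**
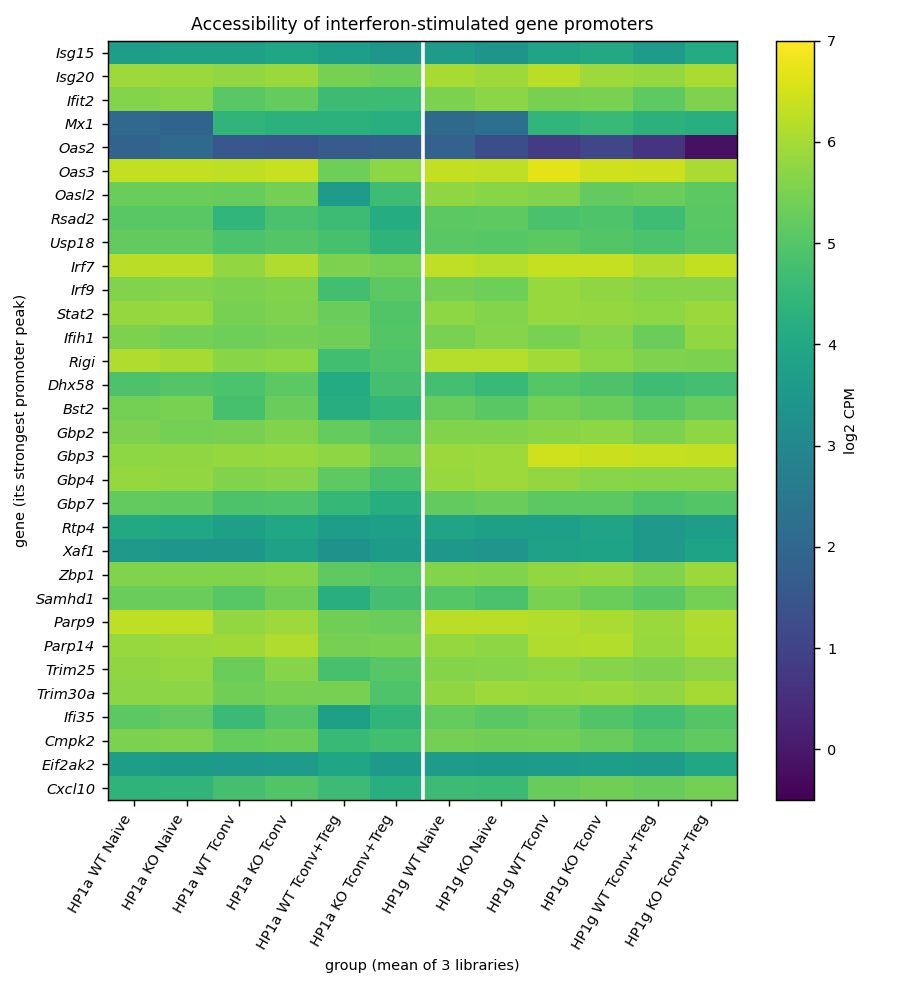
Mean accessibility of the leading promoter peak of each of the 32 interferon-stimulated genes in the 12 groups, as log2 CPM (color scale, mean of all 3 libraries of a group, those the study left out included). Most genes keep a similar level in naive and transferred cells of both genotypes, and Mx1 is the gene whose naive groups stand clearly below the others.

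Between naive cells and Tconv taken from the allogeneic hosts, distal peaks of a few interferon-stimulated genes differed strongly and, among the leading promoters, that of Mx1. Peaks count as called here when edgeR's quasi-likelihood test gave an adjusted p (Benjamini-Hochberg, over all peaks) below 0.05 and the log2 fold change exceeded 1 in either direction. In Tconv against naive cells, 30 of the 147 peaks were called higher and 11 lower in HP1a WT, where 24.9% and 17.5% of all 71509 peaks were called. The counts were 26 higher and 11 lower in HP1a KO (23.5% and 19% of all peaks), 30 and 17 in HP1g WT (24.5% and 22%), and 29 and 17 in HP1g KO (22.4% and 20.6%). The higher counts were thus 17.7% to 20.4% of the peaks of these genes and the lower counts 7.48% to 11.6%, below the whole table in each comparison. These 4 comparisons share no library. In all 4, 25 of the 147 peaks were called higher and 9 lower, and 91 were called in none, against 17.7%, 14.6% and 45.0% of all peaks. The labels do not say whether the naive and the transferred libraries were made together, so cell state and any such batch cannot be told apart here.

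Promoters made up little of this. Of the 36 promoter peaks 34 were called in none of the 4 comparisons, and 77.3% of all 13071 promoter peaks were likewise called in none. The exceptions were Mx1, higher in all 4, and a weaker peak 0.878 kb inside Ifit2, whose protein binds foreign RNA, which was lower by 1.03 on the log2 scale in HP1g KO. Without the fold threshold, 2, 4, 10 and 10 of the 36 promoter peaks were higher and 6, 4, 3 and 3 lower in HP1a WT, HP1a KO, HP1g WT and HP1g KO, where 13.3%, 14.3%, 31.5% and 25.3% of all promoter peaks were higher and 38.9%, 27.2%, 20.1% and 22.5% lower. Cxcl10, the chemokine that draws CXCR3+ T cells, was among the higher ones each time, with log2 fold changes of 0.59, 0.63, 0.68 and 0.82. Oas2 was the lowest of the leading promoters in HP1a WT, HP1a KO and HP1g WT, at -0.71, -0.70 and -0.99, of which the last 2 passed the adjusted p, and was at -0.17 in HP1g KO.

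All 6 peaks of Mx1 were called higher in all 4 comparisons, as was the only peak of Ifit1. In C57BL/6 mice Mx1 carries a deletion and gives no working protein, and the Mx1 allele in the mutant lines was not checked here. Its promoter peak (chr16:97261671-97264930) was at 1.91, 2.27 and 2.04 log2 CPM in HP1a WT naive libraries and at 4.18, 4.22 and 4.82 in HP1a WT Tconv. In HP1g WT it was at 2.31, 2.00 and 1.97 in naive cells and at 4.58, 4.22 and 4.50 in Tconv. No Tconv library came near a naive one, and the log2 fold changes were 2.27 (SE 0.18, adjusted p = 1.17e-08) in HP1a WT, 2.42 (SE 0.17, 1.79e-09) in HP1a KO, 2.43 (SE 0.19, 1.59e-09) in HP1g WT and 2.41 (SE 0.21, 1.66e-08) in HP1g KO.

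Leaving aside a sparsely read peak, the largest rise of Mx1 was 5.56 kb upstream of its TSS (chr16:97268961-97270380). This peak was at -0.32, -0.53 and -0.02 log2 CPM in HP1a WT naive cells and at 3.31, 3.10 and 3.89 in HP1a WT Tconv, which left a gap of more than 3 log2 units between the groups. The fold changes were 3.73 (SE 0.26), 4.24 (SE 0.24), 4.27 (SE 0.25) and 3.72 (SE 0.25) in HP1a WT, HP1a KO, HP1g WT and HP1g KO. The sparse peak, 18.6 kb downstream of the TSS, had a fitted change of 6.94 in HP1a KO, but the 3 naive libraries there held 0, 0 and 1 read, so the value depends on the prior count. The centre of the upstream peak, chr16:97269521-97269820 on the plus strand, is shown because it holds 2 ISRE cores (capitals) on either side of a GA repeat, whereas the 300-base promoter window of Mx1 holds none.
Mx1 5.56 kb upstream: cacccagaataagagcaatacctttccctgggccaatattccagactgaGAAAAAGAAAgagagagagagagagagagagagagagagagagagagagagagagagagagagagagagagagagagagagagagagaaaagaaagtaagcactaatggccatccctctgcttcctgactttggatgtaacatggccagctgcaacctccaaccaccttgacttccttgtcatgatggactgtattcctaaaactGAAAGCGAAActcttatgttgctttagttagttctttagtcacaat
Of the 17 distal peaks with an ISRE core in their central 300 bases, 4 were higher and 2 lower in all 4 comparisons and 9 were called in none, against 20, 7 and 48 of the 94 without one.

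Irf1, a transcription factor that both interferon types induce, rose over a broad downstream stretch. Of its 18 peaks, 6 that lie 33.4 to 50.5 kb downstream of the TSS were higher in all 4 comparisons, and 8 were called in none, most of them nearer to the gene. The one with the largest change in the HP1a series, 40.0 kb downstream (chr11:53700731-53701990), was at -0.13, -0.04 and 0.24 log2 CPM in HP1a WT naive cells and at 4.13, 3.54 and 3.88 in Tconv. In HP1g WT it was at -0.30, -0.39 and -0.32 in naive cells and at 4.38, 4.93 and 4.91 in Tconv. The groups stood far apart in both series, with fold changes of 3.99 (SE 0.23) and 5.23 (SE 0.32). In the HP1g series the peak 35.6 kb downstream changed more, by 5.68 in WT and 4.86 in KO. Irf7, Irf9 and Stat2, the other transcription factors listed, had no peak called in all 4.

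Isg20, a 3′ exonuclease that degrades viral RNA, had the largest change of any of the 147 peaks in both WT series, 3.62 kb upstream (chr7:78558401-78559560). It was at -0.62, -0.96 and -0.97 log2 CPM in HP1a WT naive cells, with 28 to 42 reads, and at 4.07, 3.42 and 4.07 in Tconv. In HP1g WT it was at -1.12, -1.88 and -1.34 in naive cells and at 4.24, 4.64 and 4.17 in Tconv. The site was thus close to closed in naive cells and open in every Tconv library, with fold changes of 4.94 (SE 0.28), 4.31 (SE 0.29), 6.01 (SE 0.38) and 4.34 (SE 0.46) in HP1a WT, HP1a KO, HP1g WT and HP1g KO. Its promoter peak changed by -0.05 to 0.28.

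Among the sensors, Ifih1 (which encodes MDA5, a receptor for long double-stranded RNA) rose at 4 of 10 peaks in all 4 comparisons. These lie 2.81 kb upstream and, in introns, 19.8, 23.2 and 27.4 kb downstream of the TSS, and the last of them rose by 3.04 to 3.52. The promoter of Ifih1 changed by -0.11 to 0.08. Among the guanylate-binding proteins, Gbp3 rose at peaks 14.2 and 9.61 kb upstream, the nearer by 3.66 to 4.32. That peak (chr3:142255401-142256840) overlaps the 3′ end of Gbp7, which ends at 142255910. Ifit1 rose at its only peak, 9.62 kb from the TSS, by 2.48 to 3.53, and Rsad2 (viperin) rose at 3.73 kb upstream by 1.28 to 1.42. Parp9 and Parp14, an ADP-ribosyltransferase pair beside each other on chromosome 16, rose at 1 peak each.

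The 9 peaks that fell in all 4 comparisons belonged to Zbp1 (3 of 8 peaks), Samhd1 (2 of 9), Trim25 (2 of 7), Ifit2 (1 of 6) and Oasl1 (1 of 2). Samhd1, which depletes the nucleotides that viruses need, lost its peak 13.2 kb downstream (chr2:156963001-156964610). Naive HP1a WT libraries were at 5.57, 5.62 and 5.62 log2 CPM and Tconv at 2.94, 2.43 and 2.59. In HP1g WT the values were 5.68, 5.56 and 5.61 in naive cells and 2.63, 2.46 and 2.09 in Tconv. The naive libraries lay close together and well above every Tconv library, and the site fell by 2.78 (SE 0.18) and 3.14 (SE 0.17). A peak 1.96 kb downstream of the Samhd1 TSS went the other way, by 1.11 to 1.79. Trim25, the ubiquitin ligase that acts with RIG-I, lost peaks 24.1 and 29.3 kb downstream, the first from 6.14, 5.78 and 5.76 in HP1a WT naive cells to 3.01, 3.32 and 2.69 in Tconv. Zbp1, a sensor of Z-form nucleic acid that starts necroptosis, lost the peaks 5.0, 8.84 and 17.2 kb upstream by 1.48 to 2.48, while its ISRE-rich promoter changed by 0.07 to 0.29.

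**Figure D2:**
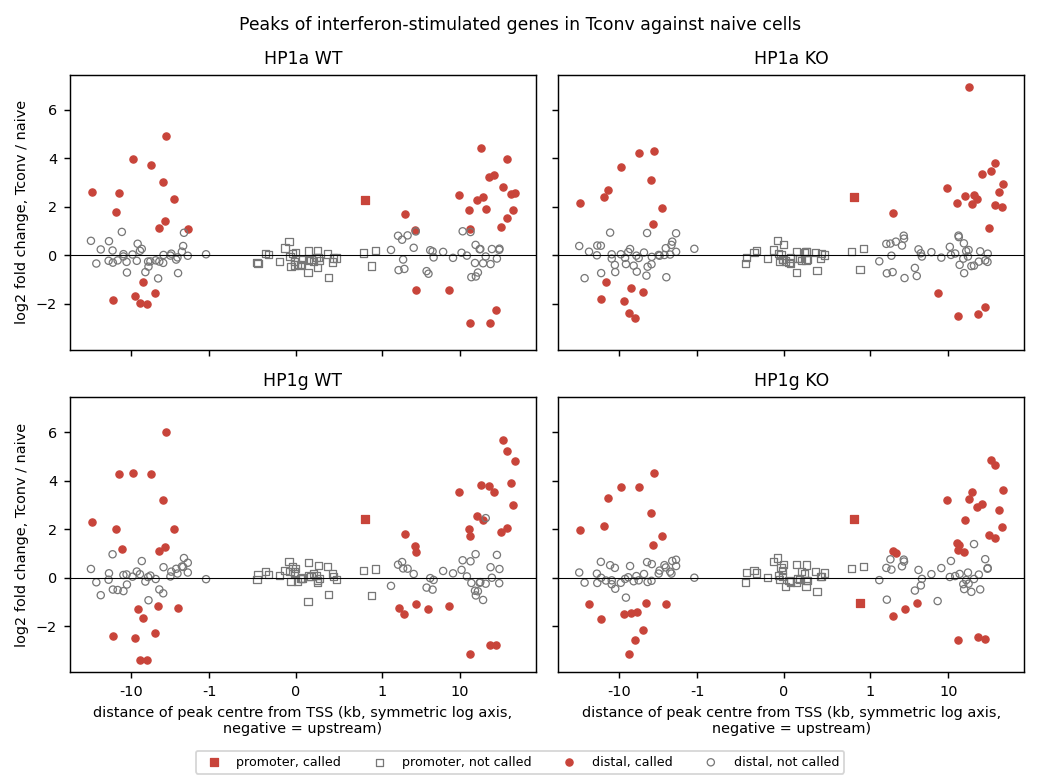
Log2 fold change in Tconv against naive cells for the peaks of interferon-stimulated genes, by distance from the TSS in kb, in the 4 comparisons that share no library. Promoter peaks lie between -1.03 (Ifit2) and 0.82 (Cxcl10) apart from Mx1, while the distal peaks spread from -3.38 to 6.94.

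**Figure D3:**
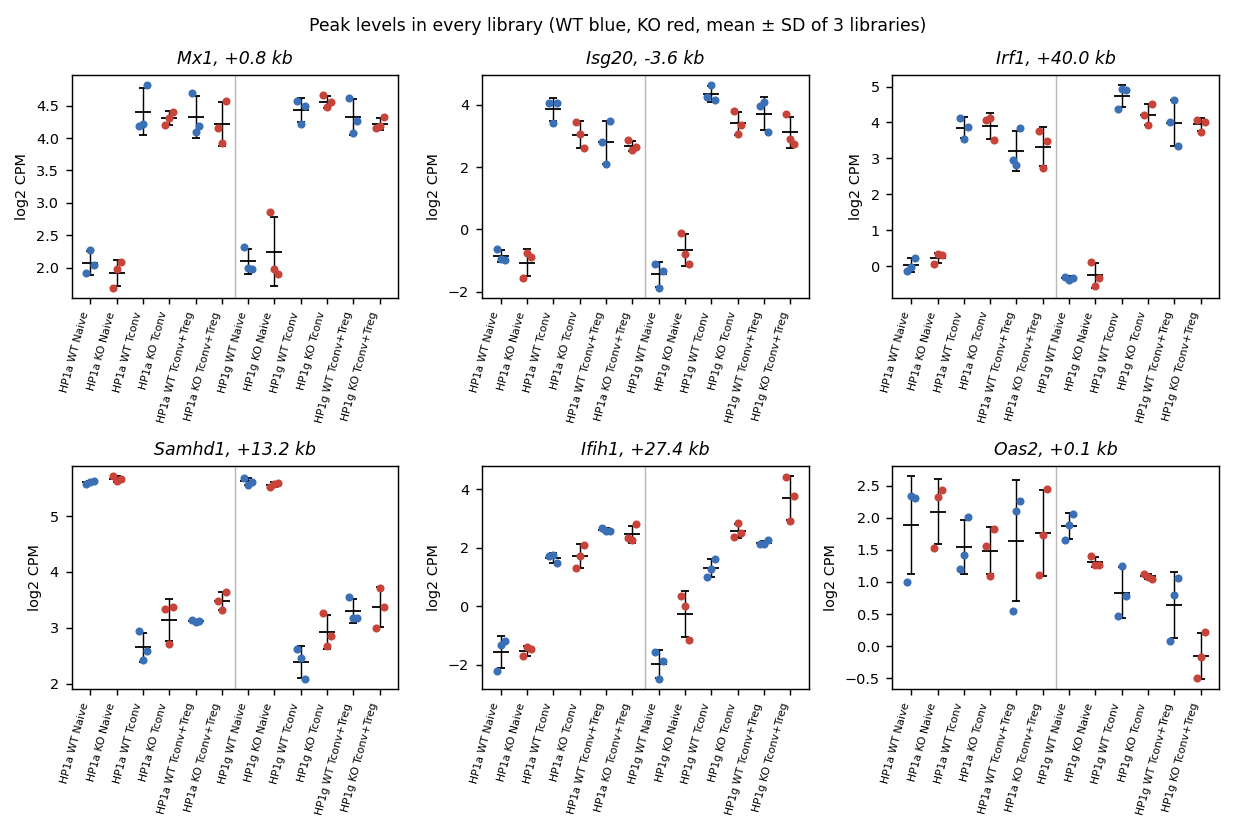
Accessibility of 6 peaks of interferon-stimulated genes in each library, as log2 CPM, with the mean and SD of the 3 libraries of a group, those the study left out included. Mx1, Isg20 and Irf1 rise from naive to transferred cells, Samhd1 falls, and the Ifih1 peak 27.4 kb downstream stands highest in HP1g KO Tconv with Treg, where the Oas2 promoter is lowest.

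By role, counts of peaks called in all 4 comparisons are small and were not compared between families. Beside the 17.7% of all peaks that rose and the 14.6% that fell, the OAS family, which makes or resembles the makers of 2-5A, had 8 peaks, of which 0 rose and 1 fell (Oasl1), and the only MX gene with peaks was Mx1. The IFIT family had 7 peaks, of which 1 rose and 1 fell. The GBP family had 17, of which 2 rose, and the transcription factors had 23, of which 6 rose, all of Irf1. Isg15 and Usp18, which removes ISG15 and blocks the type I receptor, had 12 peaks together with 0 called in all 4 in either direction (edgeR), and 9 called in none.

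No peak of these genes was called between HP1a KO and WT in naive cells or in Tconv without Treg. In naive cells edgeR called 0 of the 147 peaks higher and 0 lower (0.0042% and 0.0014% of all peaks), with 0 at an unadjusted p under 0.05 and 0 called by DESeq2. In Tconv it called 0 and 0 (0.00839% and 0.0126% of all peaks), with 7 at an unadjusted p under 0.05 (4.76%, against 4.82% of all peaks) and 0 by DESeq2. The 32 leading promoters had log2 fold changes from -0.17 (Mx1) to 0.09 (Isg15) in naive cells and from -0.02 (Mx1) to 0.30 (Bst2) in Tconv. Intervals of 2 SE around these stayed within -0.57 and 0.59 in naive cells and within -0.67 and 0.86 in Tconv, so a 2-fold change (1 on the log2 scale) lay outside the interval of each of the 32.

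With Treg, HP1a KO against WT gave 0 peaks higher and 1 lower (0.218% and 1.42% of all peaks), from 1 KO and 2 WT libraries. With 1 KO library, the SE and p-values take the spread from the other groups of the fit, and the lone library is assumed to vary like them. Here 19 peaks (12.9%) had an unadjusted p under 0.05, against 16.3% of all peaks, and DESeq2 called 6. The called peak lies 18.6 kb downstream of the Mx1 TSS and was at -2.66 (SE 0.67, adjusted p = 0.048). It held 34 reads in the KO library and 62 and 0 reads in the 2 WT libraries, so the groups overlapped, and without WT replicate 1 the fitted change was 8.22. The promoters were less precise than in the other conditions: 2 SE intervals ran from -1.68 to 2.15 and stayed within ±1 for 21 of 32 genes. The widest differences were 1.24 (SE 0.45, adjusted p = 0.17) at Oasl2 and -0.51 at Eif2ak2, the kinase PKR, neither of which passed.

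**Figure D4:**
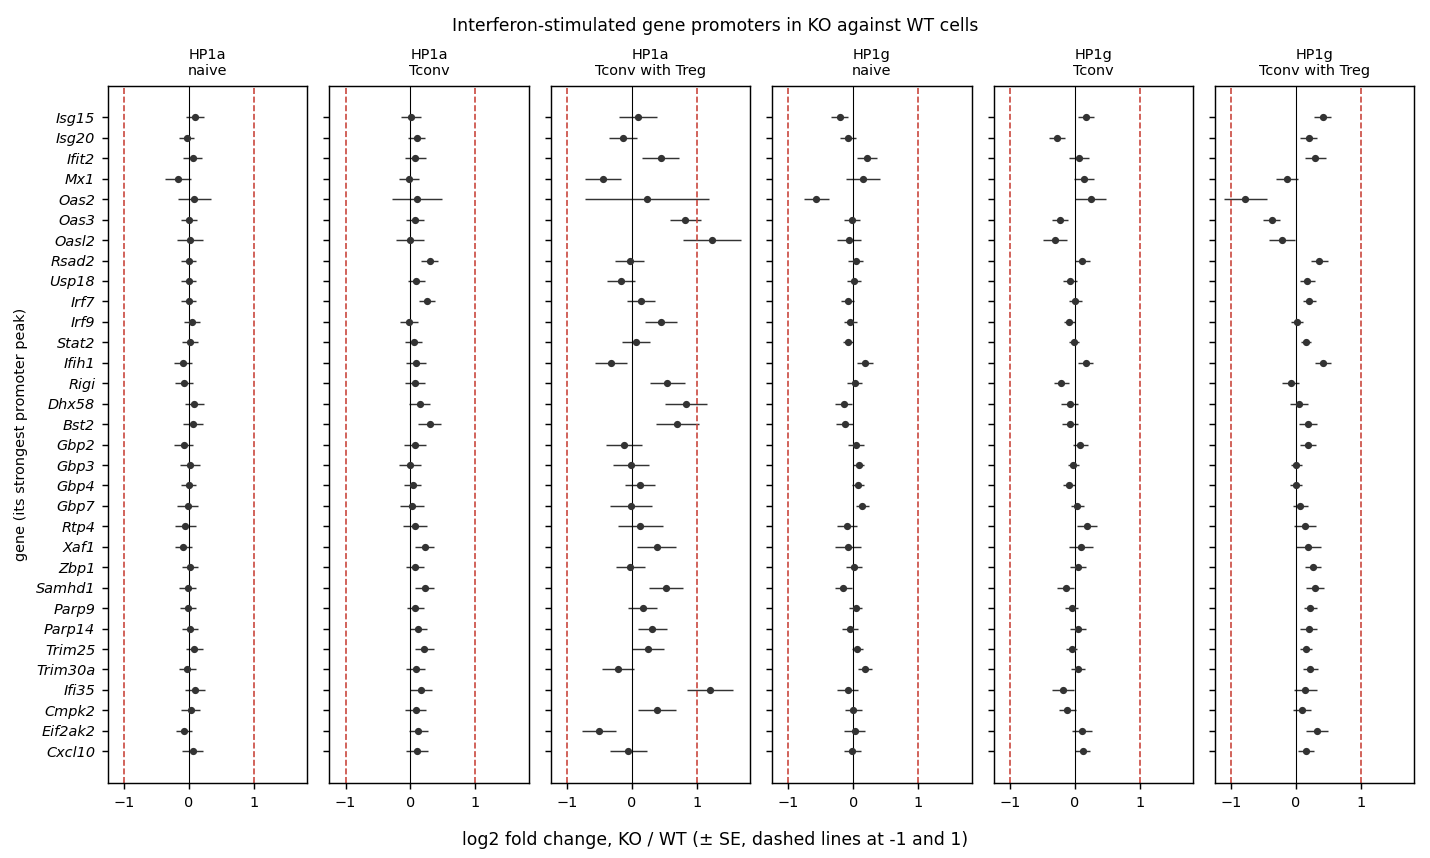
Log2 fold change of KO against WT at the leading promoter peak of each of 32 interferon-stimulated genes in naive cells, Tconv and Tconv with Treg, for HP1a and HP1g, with bars of 1 SE. None passes the call threshold, and the bars are widest for HP1a with Treg, where 1 KO and 2 WT libraries enter.

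Between HP1g KO and WT no leading promoter passed the threshold either, but with Treg a few distal peaks were called, and 3 of them lie inside Ifih1. In naive cells edgeR called 0 higher and 0 lower (0.133% and 0.00699% of all peaks), with 11 at an unadjusted p under 0.05 (7.48%, against 8.98% of all peaks) and 2 by DESeq2. In Tconv it called 0 and 0 (1.69% and 1.66%), with 27 at an unadjusted p under 0.05 and 3 by DESeq2 (the unadjusted share was 18.4% here and 19.6% over all peaks), and the Isg20 peak 3.62 kb upstream was at -0.90 (SE 0.22, adjusted p = 0.021), under the fold threshold. In Tconv with Treg it called 4 higher and 3 lower, which is 2.72% and 2.04% of the 147 peaks, against 6.48% and 5.38% of all peaks. With Treg, myeloid marker peaks took 0.00795% to 0.00934% of reads in KO against 0.0103% to 0.0120% in WT. Peaks of Tcf4, on the plasmacytoid dendritic list, took 0.00892% to 0.00903% against 0.00935% to 0.0127%. Those of Foxp3, the Treg marker, took 0.000195% to 0.000219% against 0.000273% to 0.000324%. None of these ranges overlapped, and their part in the calls was not tested. The leading promoters ranged from -0.57 (Oas2) to 0.21 (Ifit2) in naive cells, from -0.31 (Oasl2) to 0.25 (Oas2) in Tconv and from -0.78 (Oas2) to 0.41 (Isg15) with Treg. In this last condition 27 of 32 were above 0, as were 75.1% of all promoter peaks.

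Beneath the fold threshold, 3 leading promoters passed the adjusted p in HP1g KO against WT with Treg, 2 higher and 1 lower, while 11.7% of all promoter peaks were higher and 2.56% lower by this measure. Isg15 was at 4.09, 4.04 and 4.19 log2 CPM in KO and at 3.89, 3.57 and 3.51 in WT, without overlap, a difference of 0.41 (SE 0.13, adjusted p = 0.036). Ifih1 differed by 0.41 (SE 0.13, 0.028) and Oas3, another 2-5A synthetase, by -0.37 (SE 0.13, 0.047). The 3 OAS promoters were all below 0 (-0.78 at Oas2, -0.37 at Oas3 and -0.22 at Oasl2). Of the OAS promoters only Oas3 passed the adjusted p.

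The Ifih1 peaks lie in introns at chr2:62448121-62450300, chr2:62452661-62454140 and chr2:62456501-62457020, which is 27.4, 23.2 and 19.8 kb downstream of the TSS. The first was at 4.41, 2.89 and 3.75 log2 CPM in HP1g KO Tconv with Treg and at 2.11, 2.12 and 2.25 in HP1g WT, a difference of 1.70 (SE 0.31, adjusted p = 0.0013). Without Treg it was at 2.36, 2.84 and 2.51 in KO and at 1.0, 1.26 and 1.63 in WT, a difference of 1.28 (SE 0.38, 0.053). In naive cells it was at 0.35, 0.02 and -1.15 in KO and at -1.58, -2.50 and -1.87 in WT, from 10 to 39 reads a library, a difference of 1.76 (SE 1.01, 0.65). The KO libraries stood above the WT libraries in all 3 cell states without overlap, and the difference passed the test with Treg only.

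The neighbouring Ifih1 peak at 23.2 kb was at 3.98, 1.96 and 3.29 in KO and at 1.35, 1.42 and 2.00 in WT with Treg, so that KO replicate 2 lay just under the highest WT library. It differed by 1.80 (SE 0.40, adjusted p = 0.0041), and the one at 19.8 kb by 1.63 (SE 0.38, 0.0051). Without Treg the differences were 1.70 (SE 0.50, 0.052) and 1.57 (SE 0.50, 0.067). The difference between the conditions was tested on its own, and the interaction of genotype and Treg was 0.41 (SE 0.51, adjusted p = 0.73), 0.10 (SE 0.69, 0.96) and 0.06 (SE 0.70, 0.98) at the 3 Ifih1 peaks. KO replicate 1 was the highest at each. Without it, the differences were 1.21, 1.17 and 0.91, and the last no longer passed (adjusted p = 0.060). With a replicate block, all 3 were still called, but with only the groups compared in the fit the peaks at 23.2 and 19.8 kb were not (adjusted p = 0.071 and 0.099). The centre of the first peak, chr2:62449061-62449360 on the plus strand, is shown because it was called in every setting tried and without each library, and it holds no ISRE core in these 300 bases.
Ifih1 27.4 kb downstream: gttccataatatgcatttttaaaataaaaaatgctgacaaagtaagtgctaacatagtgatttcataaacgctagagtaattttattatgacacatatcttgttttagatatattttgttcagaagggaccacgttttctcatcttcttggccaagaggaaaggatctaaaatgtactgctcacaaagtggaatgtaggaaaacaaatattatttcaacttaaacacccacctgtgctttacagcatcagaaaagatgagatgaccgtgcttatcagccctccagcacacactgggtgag

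The other peak called higher lies 16.9 kb from the TSS of Rsad2, at 1.15 (SE 0.39, adjusted p = 0.046) from 22 to 93 reads a library in these groups, and the call remained in 5 of the 18 fits that leave out a library. The peaks called lower were 48.3 kb downstream of Irf1, 4.42 kb upstream of Gbp4 and 1.60 kb downstream of the Bst2 TSS, Bst2 being tetherin, which holds budding virus at the cell surface. The Irf1 peak (chr11:53709111-53710080) was at 0.32, 1.30 and 1.03 log2 CPM in KO and at 2.23, 2.52 and 2.46 in WT. The groups did not overlap, and the difference was -1.47 (SE 0.28, adjusted p = 0.0020), with a call in every setting tried and without each library. In Tconv without Treg the same peak differed by -0.56 (SE 0.20, 0.12), and the interaction was -0.92 (SE 0.35, 0.34). The Irf1 peak 40.0 kb downstream was at 4.08, 3.74 and 4.02 in KO and at 4.0, 4.63 and 3.35 in WT, which overlap.

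Gbp4 was at 0.57, 1.19 and 0.95 log2 CPM in KO and at 2.04, 2.11 and 1.69 in WT, a difference of -1.09 (SE 0.26, adjusted p = 0.0076) without overlap, and without KO replicate 1 it was -0.89 and no longer called. Bst2 was at -1.39, 0.42 and 0.64 in KO and at 0.46, 1.63 and 1.33 in WT, so that KO replicate 3 lay above WT replicate 1. The difference was -1.13 (SE 0.36, adjusted p = 0.034), and -0.63 without KO replicate 1.

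Exposure to Treg changed few of these peaks. In HP1g WT Tconv, Treg against none gave 0 higher and 0 lower (0.0671% and 0.0699% of all peaks) by edgeR, with 25 at an unadjusted p under 0.05 (17%, against 20.3% of all peaks) and 0 by DESeq2. Of the 32 leading promoters 30 were below 0, from -0.37 (Isg20) to 0.04 (Eif2ak2), as were most promoter peaks of the whole table, of which 26.4% were above 0. In HP1g KO Tconv the counts were 4 higher and 3 lower (6.1% and 2.06% of all peaks). The higher ones were the 3 intronic Ifih1 peaks, by 1.26 (SE 0.27, adjusted p = 0.0051), 1.18 (SE 0.34, 0.023) and 1.2 (SE 0.33, 0.017), and a peak 39.9 kb from Isg20, by 1.03. Without KO Treg replicate 1 the Ifih1 values were 0.77, 0.56 and 0.48 and none was called. B cell marker peaks took 0.00398% to 0.00429% of reads in HP1g KO with Treg against 0.00292% to 0.00376% without. Myeloid marker peaks took 0.00795% to 0.00934% against 0.00957% to 0.0104%. Peaks of Klrb1c, on the NK list, took 0.0278% to 0.0345% against 0.0350% to 0.0446%. Those of Foxp3, the Treg marker, took 0.000195% to 0.000219% against 0.000229% to 0.000331%. None of these ranges overlapped, and their part in these calls was not tested. This comparison and the KO against WT comparison share the HP1g KO Tconv with Treg libraries.

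Among the lower ones was the only leading promoter of the HP1g series called against Treg, that of Oas2. In HP1g KO it was at 1.13, 1.08 and 1.04 log2 CPM without Treg and at -0.50, -0.18 and 0.21 with Treg, from 39 to 48 reads, a fall of 1.31 (SE 0.28, adjusted p = 0.0051) that held without each library but not with only the groups compared in the fit (adjusted p = 0.062), where 0 of the 7 calls remained. In HP1g WT it was at 0.46, 1.25 and 0.79 without Treg and at 0.07, 0.79 and 1.06 with Treg, which overlap. The interaction was -1.03 (SE 0.40, 0.34). The Irf1 peak 48.3 kb downstream fell by 1.40 (SE 0.27, 0.0026) and a peak 4.51 kb upstream of Rigi, which encodes RIG-I, by 1.13 (SE 0.31, 0.022).

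In HP1a WT Tconv, Treg against none gave 3 peaks higher and 4 lower (4.92% and 1.84% of all peaks), and in HP1a KO 0 and 0 (0.264% and 0.284%), with 8 at an unadjusted p under 0.05 (5.44%, against 8.54% of all peaks) and 0 by DESeq2. The HP1a KO counts rest on 1 library with Treg, and the spread assumed for it comes from the other groups of the fit. With all 18 HP1a libraries, 1 peak was called higher in HP1a KO. The higher peaks in WT were Mx1 at 18.6 kb and Ifih1 at 23.2 and 19.8 kb, by 2.32, 1.62 and 1.77. Without WT Treg replicate 1, the Ifih1 peak at 19.8 kb was at 0.13. The lower ones included the promoters of Oasl2, an OAS-like protein that enhances RIG-I signalling, and of Ifi35. The Oasl2 promoter was at 5.69, 5.45 and 4.64 log2 CPM without Treg and at 4.11 and 2.69 with Treg, a fall of 1.49 (SE 0.40, adjusted p = 0.030), and WT Treg replicate 2 held 12 reads there. Without WT Treg replicate 1, this value was -2.82 and no longer called (adjusted p = 0.97). Ifi35 fell by 1.10 (SE 0.32, 0.042). These 7 calls rest on single libraries: 0 remained without WT Tconv replicate 1 or WT Treg replicate 1, 1 without WT Treg replicate 2 (1.49 M reads), and 0 with depth as a covariate. With all 18 HP1a libraries there were 5. Over all 3 libraries of each group, the one left out included, peaks of 4 B cell marker genes took 0.00563% to 0.00787% of reads with Treg against 0.00324% to 0.00474% without, and those of Tcf4, on the plasmacytoid dendritic list, 0.0167% to 0.0230% against 0.00936% to 0.0154%. Peaks of the CD4 T cell markers took 0.124% to 0.135% against 0.136% to 0.173%, and those of Klrb1c, on the NK list, 0.0209% to 0.0329% against 0.0338% to 0.0364%. None of these ranges overlapped, and their part in the 7 calls was not tested.

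**Figure D5:**
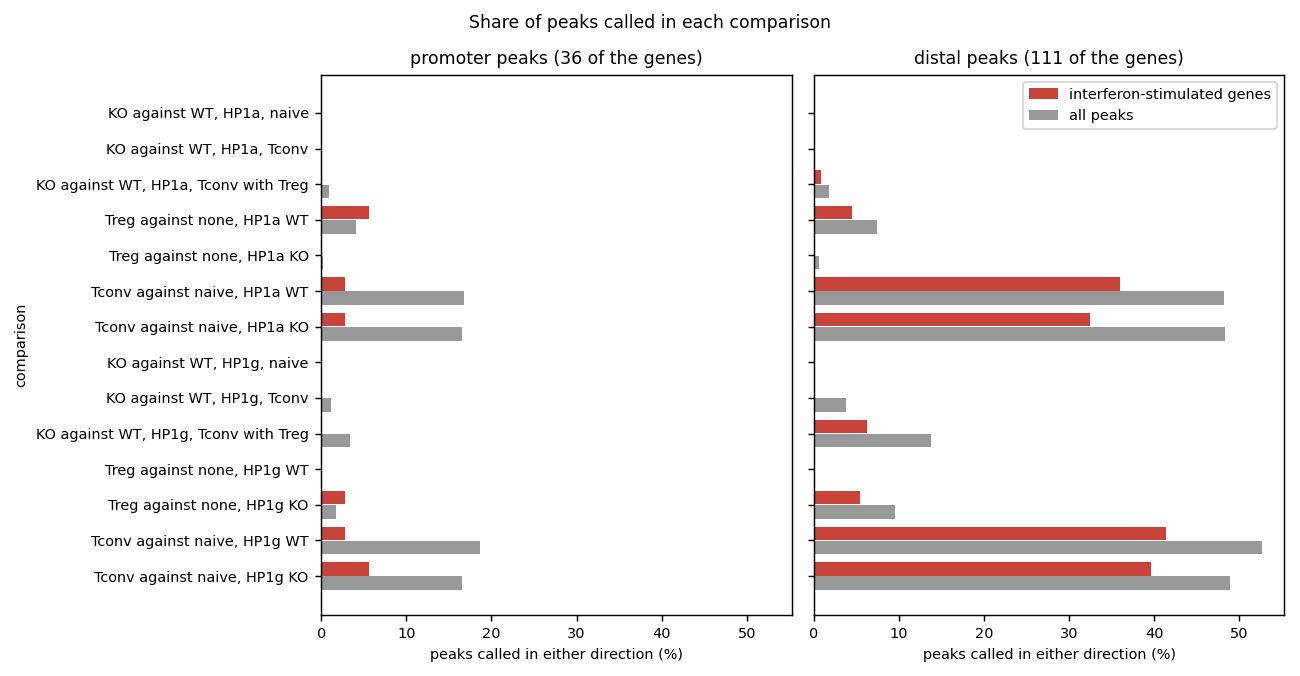
Share of the 36 promoter peaks (left) and 111 distal peaks (right) of interferon-stimulated genes called in either direction in each comparison, in percent, beside the share of all peaks of that kind. The bars of these genes are at or below those of all peaks except at promoters for Treg against none in HP1a WT (2 of 36 called) and HP1g KO (1 of 36).

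No interaction was called at any of the 147 peaks by edgeR. Genotype by activation gave 0 in HP1a (0% of all peaks called in either direction), with 1 at an unadjusted p under 0.05 (0.68%, against 1.8% of all peaks) and 0 by DESeq2, and 0 in HP1g (0.014%), with 6 at an unadjusted p under 0.05 (4.08%, against 9.51%) and 1 by DESeq2. Genotype by Treg gave 0 in HP1a (0.0461%), with 10 at an unadjusted p under 0.05 (6.8%, against 10.3%) and 0 by DESeq2, and 0 in HP1g (0.0014%), with 15 (10.2%, against 12.8%) and 0 by DESeq2.

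The rest of the pathway was read from lists of 11 interferon ligand and receptor genes, 16 signalling genes and brakes, 11 genes of nucleic acid sensing upstream of interferon and 54 other interferon-induced genes, of which 45 had a peak. In Tconv against naive cells, 5 of the 48 promoter peaks of the other induced genes were higher and 1 lower in HP1a WT (10.4% and 2.08%, against 9.24% and 7.48% of all promoter peaks), and 4 and 1 in HP1g WT (8.33% and 2.08%, against 9.79% and 8.91%). The share that rose was thus near that of all promoters. Those that rose included the Ifitm genes, whose small membrane proteins block viral entry: Ifitm2 by 4.72 (SE 0.29), Ifitm3 by 3.81 (SE 0.38) and Ifitm1 by 3.25 (SE 0.28) in HP1a WT, and by 4.73 (SE 0.45), 4.66 (SE 0.53) and 3.26 (SE 0.39) in HP1g WT. Cxcl9, another CXCR3 ligand, rose by 2.04 (SE 0.22) and 1.73 (SE 0.29). Of the 9 sensing promoters, 2 fell in both WT series: Tlr7, an endosomal receptor for single-stranded RNA, at -3.51 (SE 0.27) and -2.75 (SE 0.23), and Tlr3, which reads double-stranded RNA, at -1.16 (SE 0.26) and -1.34 (SE 0.25). In each KO series 1 of the 9 was called lower (11.1%, against 7.34% of all promoter peaks in HP1a KO and 7.69% in HP1g KO). It was Tlr7, at -2.87 (SE 0.21) in HP1a KO and -3.51 (SE 0.27) in HP1g KO. Tlr3 was at -0.62 and -0.78, under the fold threshold. Of the 3 promoters of ligands and receptors, Ifnlr1, the receptor of interferon lambda, was at -1.0 (SE 0.20) in HP1g WT, where it was called, and at -0.61 in HP1a WT. The distal peaks of the signalling list were called higher at 88 and lower at 30 of 243 in HP1a WT (36.2% and 12.3%, against 28.4% and 19.8% of all distal peaks), and at 92 and 35 in HP1g WT (37.9% and 14.4%, against 27.8% and 24.9%).

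In HP1g KO against WT with Treg, 0 of the 15 signalling promoters were called by edgeR. Of all promoter peaks, 2.23% were called higher and 1.12% lower in this comparison. Stat3 was at 0.32 (SE 0.08, adjusted p = 0.0078), below the fold threshold. Of the 243 distal signalling peaks, 23 were higher and 13 lower (9.47% and 5.35%, against 7.43% and 6.33% of all distal peaks). Of the higher peaks, 8 were of Irf2, a gene named here after its count was seen. Of the 152 distal peaks of the other induced genes 2 were higher and 26 lower, or 1.32% and 17.1%, and the difference between the lists was not tested. Of their 48 promoters 4 were lower (8.33%, against 1.12% of all promoter peaks), with Ifitm1, Ifitm2 and Ifitm3 at -1.22 (SE 0.38), -1.38 (SE 0.40) and -1.78 (SE 0.45, adjusted p = 0.0080). Of the lower peaks, 5 are of Ifitm1, 2 of Ifitm2 and 3 of Ifitm3, which lie side by side, and 5 are of Epsti1, again named after the counts were seen.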

How the data were processed

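Per the labels and the study's methods, the authors trimmed reads with Trim Galore 0.6.7, aligned them with BWA, called peaks with HMMRATAC, merged them with bedtools and counted reads per consensus peak with featureCounts 2.0.3 (GRCm39). The deposited table holds raw counts for 71512 intervals in 36 libraries, and the same intervals served all libraries. Intervals without a width were left out, which left 71509. HP1a (15 libraries, without the 3 that the study excluded) and HP1g (18 libraries) were fitted apart in R 4.3.3 with edgeR 4.0.16: TMM scaling, a design with 1 coefficient per group, the quasi-likelihood F test and Benjamini-Hochberg adjustment over all 71509 (HP1a) or 71508 (HP1g) peaks with enough reads. The fit was tested on simulated data with known changes. Biological variation between libraries (the coefficient edgeR fits) came to 26.6% in the HP1a series and 22.2% in the HP1g series. Levels are log2 CPM, computed with a prior count of 2. The labels do not say which libraries came from separate animals, so p-values measure the spread between libraries, which may in part be technical. Depth ran from 1.49 to 96.8 M reads in peaks, and shallow libraries gave wider errors.

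The members and the lists were chosen with earlier results of these data known. Named were the strongest promoter peak of each gene, up to 4 called peaks per direction and comparison with the smallest adjusted p, genes without a peak, families by range and count, and, for each pathway list, up to 4 genes by their promoter. Peaks called in all 4 activation comparisons were named after their values were seen. Alternatives were other scalings (library size alone, loess offsets), DESeq2 1.42.0, a replicate block, a depth covariate, other filters, groups, thresholds and distances, and leaving out each library. Replicate numbers paired the libraries, with every correlation of same-numbered deviations over 0.1, in HP1a KO against WT naive (0.25 to 0.50), HP1g KO against WT with Treg (0.15 to 0.32) and Treg against none in HP1g WT (0.20 to 0.29). No pair of libraries held identical counts. Start sites were those of protein-coding transcripts in the GENCODE vM39 annotation, and motifs and sequences were read from the GRCm39 genome, the build of the files.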

Additional observations from a re-analysis of the deposited data

How the results depend on the processing

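Counts of peaks called among the 147 moved by more than 1.5 times in these cases. HP1a KO against WT with Treg (1 peak) gave 0 with loess offsets, a depth covariate or only the groups compared, and 6 with DESeq2. Treg against none in HP1a WT (7) gave 4 with loess offsets, 0 with a depth covariate and 3 with only the groups compared, and in HP1a KO (0) 1 with all 18 HP1a libraries. HP1g KO against WT gave 2 with DESeq2 or only the groups compared in naive cells (0), 1 with library size alone or only the groups compared and 3 with DESeq2 or no fold threshold in Tconv (0), and with Treg (7) 3 with only the groups compared and 23 with no fold threshold. Treg against none gave 1 in HP1g WT (0) with library size alone or loess offsets, and in HP1g KO (7) 0 with only the groups compared and 12 with no fold threshold. Tconv against naive gave 66 (41) in HP1a WT, 69 (37) in HP1a KO, 84 (47) in HP1g WT and 77 (46) in HP1g KO with no fold threshold. Genotype by activation in HP1g gave 1 with DESeq2. Legacy quasi-likelihood, chosen after seeing the data, gave 0 for HP1a KO against WT with Treg, 1 each for HP1g KO against WT in naive cells and Tconv, and 4 for Treg against none in HP1g KO. The causes were not tested, other than that fewer groups and no threshold change the test itself.

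With a replicate block, the count was 6 in HP1g KO against WT with Treg and 0 in both other comparisons whose numbers pair the libraries. Where they share only a number, the block gave 3 for HP1a KO against WT with Treg, 11 for Treg against none in HP1a WT, 1 in HP1a KO and 3 for HP1g KO against WT in Tconv.

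Leaving out each library gave 0 to 1 for HP1a KO against WT in Tconv, 0 to 2 with Treg, 0 to 3 for HP1g KO against WT in Tconv and 4 to 10 with Treg. Tconv against naive gave 38 to 45 in HP1a WT, 37 to 40 in HP1a KO, 46 to 50 in HP1g WT and 38 to 46 in HP1g KO. Treg against none gave 0 to 9 in HP1a WT, 3 to 10 in HP1g KO and 0 to 1 in HP1g WT, and the remaining counts were 0 throughout. Without HP1a WT Tconv with Treg replicate 1, the Mx1 peak at 18.6 kb turned to 8.22 for KO against WT and to -8.54 for Treg against none, since the remaining WT library held 0 reads, and over all libraries left out the values ran from -2.76 to 8.22 and from -8.54 to 2.59. Of the other values at single named peaks, 1229 kept direction and call and 123 lost the call.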
